A study of Mus musculus with 12 samples.

Results

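The 150 long noncoding RNA genes with the highest level in mouse gonocytes, the fetal and newborn germ cells of the testis, are described across 4 stages. They were chosen by their measured level: among rows of the expression table whose GENCODE M21 gene type is lincRNA, antisense or processed_transcript, the 150 with the highest mean over all 12 libraries were taken, without the 7 imprinted genes H19, Airn, Kcnq1ot1, Meg3, Rian, Mirg and Peg13. The table holds 55487 genes, of which 9354 are of these 3 types after the 7 were left out, and 7793 of those had a value above 0. The 150 consist of 69 lincRNA, 40 antisense and 41 processed_transcript genes. Because level chose them, their high level is not a finding, and a gene that is very high in a single stage could enter on that stage alone.

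Long noncoding RNAs are transcripts with no recognised protein product. Many are made by RNA polymerase II and spliced like messenger RNA, and they act, where a function is known, by binding proteins, chromatin or small RNAs, or only through the act of being transcribed beside another gene. Some are carriers: their introns hold small nucleolar RNAs (snoRNAs), which guide chemical modification of ribosomal RNA, or microRNAs. Male germ cells enter a long arrest in the fetal testis and resume division after birth, and testis is known for transcribing many noncoding loci.

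Each stage had 3 libraries, at embryonic days E13.5 and E16.5, at birth (P0) and at postnatal day 3 (P3), and all cells came from Mvh-Venus transgenic mice, in which a fluorescent protein marks germ cells. Titles and source names call every sample wild type (WT), but the genotype tag reads Morc1 (+/-) at E13.5 and P0 and Morc1 (-/-) at E16.5 and P3. Morc1, a gene needed for transposon silencing in male germ cells, was read in every library, with 1621 to 1830 normalized counts at E13.5, then 28328 to 32917 at E16.5, 7280 to 7708 in the P0 libraries and 10584 to 11129 in those of P3. Comparisons of consecutive stages cross the tag, so stage and the tagged genotype cannot be told apart there, whereas P0 against E13.5 and P3 against E16.5 stay within a tag. The labels do not say that the 3 libraries of a stage came from separate animals, so p-values measure the spread between these libraries, which may be technical.

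A value is a normalized count, the reads of a gene divided by a size factor of its library, and libraries held 40946616 to 51533747 reads in genes. Libraries are named by the numbers 1, 3 and 4 of the table's columns, and values of 3 libraries are always given in that order. Germ cell markers (6 genes, among them Ddx4 and Dazl) summed to 127497 to 265772 normalized counts per library. In the deposited scaling they were lowest at P0, where 5 of 6 fell. The normalized counts of all genes also summed to less at P0 (2.30e+07 to 2.49e+07) than at E13.5 (5.28e+07 to 5.44e+07), so this low depends on the scaling. The 6 Sertoli cell markers, of which 5 were tested, 5 rising at P0 and 5 falling at P3, summed to 2623 to 3722 at E13.5, then 3413 to 6784 at E16.5, 11753 to 22690 in the P0 libraries and 5445 to 7274 in those of P3. The 3 mast cell markers were at 0 in all E13.5 libraries and summed to 900 to 2118 at P0, and the 5 Leydig cell markers reached 7681 in an E16.5 library and 6106 in a P0 library. Macrophage markers (4 genes, 3 tested) rose from a sum of 38.1 to 71.8 at E13.5 to 974 to 1156 at E16.5 (3 of 3), and peritubular and stromal markers from 138 to 187 to 1213 to 1587 (5 of 6). The 3 endothelial markers summed to 4343 to 5085 at E13.5 and 270.1 to 431 at E16.5, with 2 higher and 1 lower, and the 3 blood markers, all higher at E16.5, to 31.5 to 324 and 186 to 841. In P0 and P3 libraries, peritubular and stromal markers summed to 2555 to 2686 and 1428 to 1640, and blood markers to 315 to 1023 and 63.0 to 181. The part of these cells in the results on P0 and E16.5 was not tested, and fewer cells of a type and less RNA per cell cannot be told apart in such libraries.

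The label "noncoding" held for most of the genes but not for all. Of the 150, 125 could be matched to RefSeq, which calls 105 lncRNA, 17 protein-coding and 3 pseudogenes. The protein-coding ones include the gene of the highest level by far, Cct6a, a subunit of the CCT chaperonin that folds actin and tubulin, which lies at chr5:129786998-129846371 (GRCm38, plus strand) and overlaps the phosphoserine phosphatase gene Psph on the other strand. Cct6a had 159441, 147358 and 151822 normalized counts at E13.5, then 43659, 47203 and 42560.5 at E16.5, 20941, 20767 and 19162 in the P0 libraries and 52596, 52510.2 and 49881 in those of P3. It was highest in all 3 E13.5 libraries and lowest in all 3 P0 libraries, with no overlap between stages. Its level fell by 1.78 (SE 0.07) on the log2 scale from E13.5 to E16.5, fell by a further 1.13 (SE 0.07) to P0, and rose by 1.35 (SE 0.07) to P3, with adjusted p = 3.33e-13, 3.31e-10 and 1.56e-11 (limma with Benjamini-Hochberg adjustment over all genes tested, as for every adjusted p below). Other protein-coding members in RefSeq are Tctn2, a transition zone gene of the primary cilium, Tmem134, a membrane protein gene, D930016D06Rik (Thoc2l in RefSeq), Trerf1, a transcriptional regulator gene, and Ifi30, which encodes a lysosomal thiol reductase.

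Per kilobase of exon, the scale on which levels of different genes can be compared, Cct6a stood at 18598 normalized counts, then Gm32885 at 1520, 1700018B24Rik at 1000.04, Gm10076 at 803, Gt(ROSA)26Sor (the transcript of the Rosa26 locus) at 758 and 2900097C17Rik at 757. RefSeq names 2900097C17Rik Norad, and it names the gene ranked just above it by mean, 1700020I14Rik, Oip5os1 (also known as Cyrano). Malat1 stood at 456, Tug1 at 77.6 and Neat1 at 18.02 normalized counts per kilobase. When all candidates were ranked per kilobase, 95 of the 150 stayed among the first 150.

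Norad and Oip5os1 carry known binding sequences, and these are shown because both genes are among the most abundant noncoding members. Norad is an intronless transcript that binds Pumilio (PUM) proteins and acts in genome stability. Its annotated transcript of 4915 bases at chr2:156388065-156392979 (GRCm38, minus strand) holds the 8-base motif TGTANATA, searched on the sense strand, 11 times. No other member held more than 4 in its longest transcript, and 38 members held at least 1. Among the 8905 GENCODE transcripts of 4000 to 6000 bases, 41.0% held at least 1 and 3 (0.0337%) held at least 11. A stretch of Norad with a pair of motifs almost side by side, bases 2422 to 2478 of the transcript, chr2:156390502-156390558, and a longer one with motifs farther apart, bases 1503 to 1651, chr2:156391329-156391477, read as follows, with the motifs in capitals.
Norad 2422 to 2478: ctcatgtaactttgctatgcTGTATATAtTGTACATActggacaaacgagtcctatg
Norad 1503 to 1651: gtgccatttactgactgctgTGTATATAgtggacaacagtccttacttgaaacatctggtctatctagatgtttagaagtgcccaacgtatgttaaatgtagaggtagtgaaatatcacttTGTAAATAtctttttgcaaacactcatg

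Oip5os1 is known for an unusually long site for the microRNA miR-7, which triggers decay of that microRNA. The mature miR-7a-5p sequence from the RefSeq table is shown with its seed (bases 2 to 8) in capitals, above the site in the 8300-base Oip5os1 transcript, chr2:119602137-119602161 (GRCm38, plus strand), where capitals mark the match to the seed with the A that follows it. The 13 bases at the start of the site are complementary to the 3′ end of miR-7a and are separated from the seed match by 4 bases. The longest Oip5os1 transcript holds 2 matches to the seed.
mmu-miR-7a-5p: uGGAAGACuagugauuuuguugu
Oip5os1 site: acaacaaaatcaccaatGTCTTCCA

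Both RNAs were present in every library and, in the deposited scaling, lowest in the middle of the series. Oip5os1 had 4593, 4695 and 4137 normalized counts at E13.5, then 3342, 2923 and 2998 at E16.5, 2112, 2026 and 1993 in the P0 libraries and 7102, 6512 and 6173 in those of P3. It fell by 0.54 (SE 0.08) on the log2 scale at E16.5 and by 0.59 (SE 0.08) at P0 and rose by 1.69 (SE 0.08) at P3, with adjusted p = 8.16e-06, 5.35e-06 and 6.71e-12 (limma). The libraries of neighbouring stages did not overlap. When libraries were scaled to equal totals, however, the differences at E16.5 (-0.03, adjusted p = 0.705, limma) and at P0 (0.07, in the other direction) were not called. Norad had 4212, 4079.5 and 4021 normalized counts at E13.5, then 2798, 3057 and 2672 at E16.5, 2658, 2901 and 2692 in the P0 libraries and 4866, 5240.2 and 5430.5 in those of P3. It fell by 0.53 (SE 0.07) at E16.5 and rose by 0.91 (SE 0.07) at P3 (adjusted p = 3.84e-06 and 6.09e-09, limma), while the E16.5 and P0 libraries overlapped. Equal totals ended both of these calls (-0.03 and 0.07, adjusted p = 0.752 and 0.372, limma). They called Norad higher at P0 than at E16.5 (0.62, adjusted p = 2.02e-06, limma), as did median-of-ratios factors (0.21, adjusted p = 0.0179, limma). The direction of Norad thus rests on the scaling.

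Malat1, the abundant transcript of nuclear speckles, changed less than most members. Its values were 2751, 3162 and 2744 normalized counts at E13.5, then 2674, 3944 and 6451 at E16.5, 2438, 3075 and 3392 in the P0 libraries and 2296, 2809.7 and 2435 in those of P3. The E16.5 libraries differed among themselves more than the stages did, and the call at E16.5 (a log2 difference of 0.50, SE 0.21, adjusted p = 0.039, limma) was lost without library 1 or 4 of E13.5, library 3 or 4 of E16.5 or library 4 of P3, with the smallest difference without library 4 of E16.5 (0.17, adjusted p = 0.327, limma). Neat1, the architectural RNA of paraspeckles, lies 22036 bp from Malat1 on the same strand of chromosome 19. Neat1 had 44.3, 26.1 and 17.9 normalized counts at E13.5, then 509, 479.8 and 481 at E16.5, 683, 800.4 and 701 in the P0 libraries and 289, 250.4 and 209.5 in those of P3. It rose by 4.10 (SE 0.24) on the log2 scale at E16.5 and fell by 1.55 (SE 0.24) at P3, with adjusted p = 6.86e-11 and 1.56e-05 (limma). The call at P0 (0.57, adjusted p = 0.0469, limma) was lost when any library of E16.5 or P0 was left out, down to 0.50 (adjusted p = 0.142, limma) without library 3 of P0.

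Tug1, which starts 482 bp from Morc2a on the opposite strand, had 802, 753 and 660.4 normalized counts at E13.5, then 333, 333 and 366 at E16.5, 415, 399.9 and 263 in the P0 libraries and 1464, 1675 and 1595 in those of P3. All P3 libraries lay above all others and the E13.5 libraries above those of E16.5 and P0. Tug1 fell by 1.10 (SE 0.15) at E16.5 and rose by 2.16 (SE 0.15) at P3 on the log2 scale (adjusted p = 3.09e-06 and 8.30e-10, limma). Its P0 and E16.5 libraries overlapped, but under equal library totals Tug1 was called higher at P0 (0.70, adjusted p = 4.80e-04, limma). Of the 7 nuclear long noncoding RNAs on the list that held these 3 genes (with Miat, Firre, Pvt1 and Lncpint), 5 rose and 1 fell at E16.5, 2 rose and 0 fell at P0, and 1 rose and 4 fell at P3. Of all genes tested 45.5% rose at E16.5, 27.6% rose at P0 and 36.4% fell at P3.

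**Figure D1:**
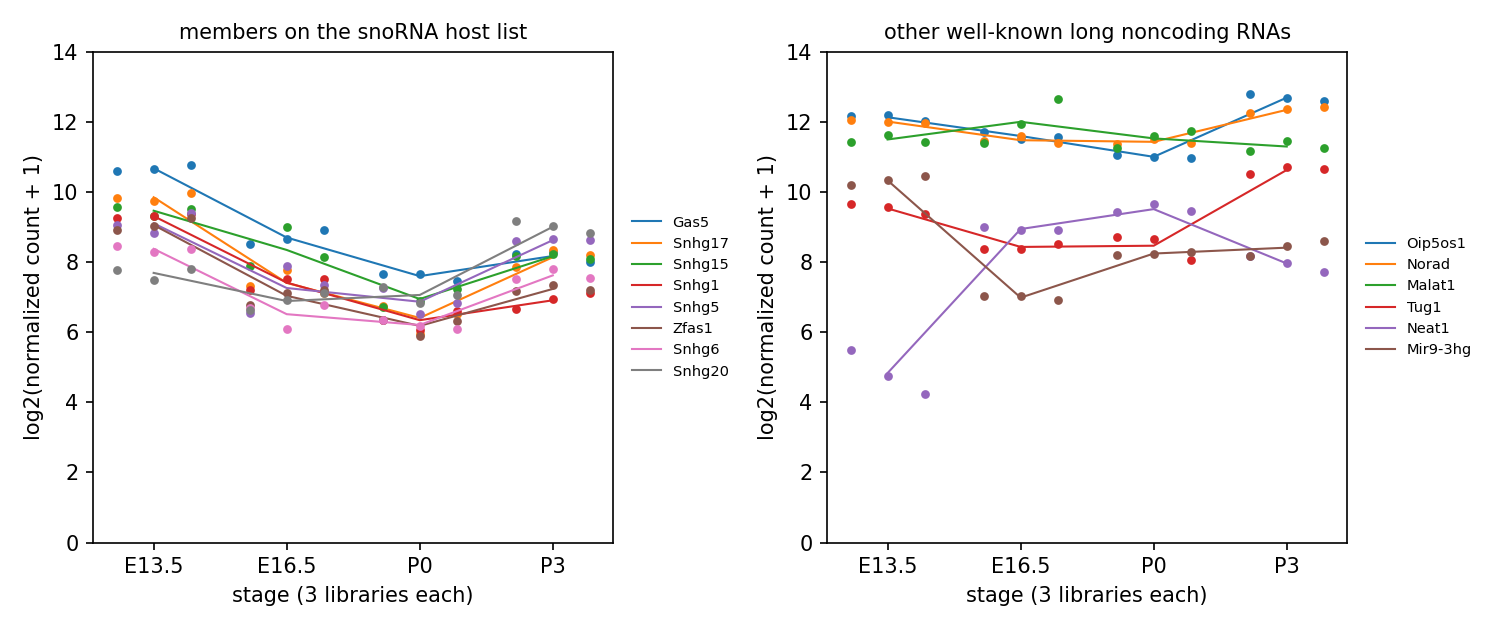
Levels of 8 members on the list of snoRNA host genes (left) and of 6 other well-known long noncoding RNA genes (right), as log2(normalized count + 1) on the vertical axis by stage on the horizontal axis; points are libraries (3 per stage) and lines join the stage means of the log values. The 8 host genes are lower at E16.5 than at E13.5 in all libraries, and Neat1 runs from 17.9 to 44.3 normalized counts at E13.5 to 683 to 800.4 at P0.

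Almost all members differed between stages. Of the 150, all passed the filter (3 or more libraries with a normalized count of 10 or more), and 149 were called in the F-test over the 4 stages at adjusted p under 0.05, where 95.2% of all 22384 genes tested were called. The median member differed 4.46-fold between its highest and lowest stage mean, each plus 1. That fold was above 10 for 33 members and below 2 for 15. The calls in the consecutive comparisons ran through all 3 steps for 65 members, and 3 members (AC165962.1, A630052C17Rik and Gm9856, named after their values were seen) had none, which is 2% of members and 4.82% of all genes.

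From E13.5 to E16.5, 130 members were called, 80 higher and 50 lower, and 59 and 34 of them changed at least 2-fold. Over all genes 80.1% were called, 45.5% higher and 34.6% lower. The median member was 0.46 higher on the log2 scale and the median of all genes 0.31 higher. Genes as abundant as the members had a median of the other sign on this scale: of the 11692 genes of any type whose mean was at least that of the last member, 3980 were called higher and 6250 lower, with a median of -0.37. This set, called as abundant here and below, has no upper limit on the mean and includes the members. It is therefore not matched to their level. LincRNA members (42 higher, 19 lower) and antisense members (24 and 9) were more often higher, and processed_transcript members (14 and 22) more often lower. Whether these types differ was not tested.

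From E16.5 to P0, 97 members were called, 21 higher and 76 lower, against 61% of all genes (27.6% higher and 33.4% lower). The median member fell by 0.47 on the log2 scale, while the median of all genes was -0.01 and that of the 11692 genes as abundant as the members -0.35. From P0 to P3, 114 members were called, 84 higher and 30 lower, against 76.5% of all genes (40.1% higher and 36.4% lower). The median member rose by 0.67, against 0.05 over all genes and 0.66 over genes as abundant. In the deposited scaling the members' medians at P0 and P3 thus lay close to those of this unmatched set of 11692 genes, and at E16.5 above its median.

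These directions around P0 depend on how libraries are scaled. With equal library totals, 61 members were called higher and 39 lower at P0, and 39 higher and 65 lower at P3. With median-of-ratios factors P0 gave 39 higher and 61 lower, and P3 gave 69 and 44. At E16.5 equal totals gave 97 higher and 35 lower, and they gave 92 higher and 37 lower for P0 against E13.5. The shift is common to all genes: under equal totals the median of all genes moved from -0.01 to 0.68 at P0 and from 0.05 to -0.86 at P3. It was 0.84 at E16.5, and 1.51 for P0 against E13.5 (members 1.34). With median-of-ratios factors it was 0.26 at P0 (members -0.21) and -0.42 at P3 (members 0.24). Shares of all genes called under these scalings are not given here, so the counts of members have no such background. Under equal totals the distance of the median member from the median of all genes moved little, from -0.46 to -0.49 at P0 and from 0.62 to 0.69 at P3, and from 0.16 to 0.13 at E16.5. Genes as abundant as the members moved along: under equal totals their median at E16.5 was 0.13, positive like that of the members (0.97), while at P0 it was 0.31 (members 0.19) and at P3 -0.18 (members -0.16).

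Within a genotype tag, P0 against E13.5 gave 136 called members, 72 higher and 64 lower, against 86.1% of all genes (45.7% higher and 40.5% lower). P3 against E16.5 gave 121, 63 higher and 58 lower, against 69.5% of all genes (34.2% higher and 35.2% lower). The 2 comparisons each share libraries with the consecutive ones. The median member was 0.17 and 0.03 higher on the log2 scale in them.

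**Figure D2:**
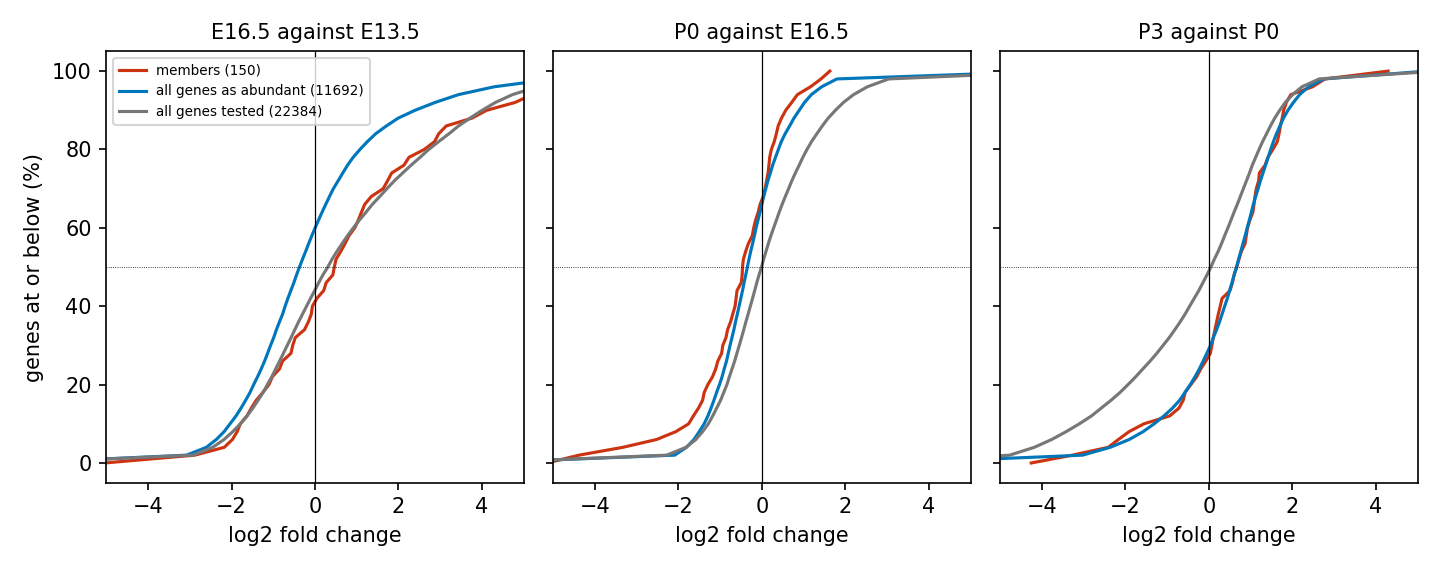
Cumulative distribution of the log2 fold change (horizontal axis) in each consecutive comparison, for the 150 members, the 11692 genes with a mean of at least that of the last member, and all 22384 genes tested; the vertical axis is the percent of genes at or below a value and the dotted line marks the median; curves join percentiles 2% apart. The member curve runs to the right of the abundant genes at E16.5 (medians 0.46 and -0.37) and close to them at P0 (-0.47 and -0.35) and P3 (0.67 and 0.66).

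By the stage of the highest mean, 40 members peaked in the E13.5 libraries, 41 in those of E16.5, 14 in those of P0 and 55 in those of P3. These counts depend on the scaling, and with equal library totals they were 21, 39, 46 and 44, with P0 in place of P3 as the most frequent peak. In percent these equal-total counts were 14, 26, 30.7 and 29.3. Under the same scaling all genes tested gave 16.9, 15.1, 51.8 and 16.2, and genes as abundant 24.8, 18.3, 35.4 and 21.5. Members thus peaked at P0 less often than either set. In percent, with the deposited scaling, the members gave 26.7, 27.3, 9.33 and 36.7, all genes tested gave 30.7, 19.3, 29.9 and 20.2, and genes as abundant as the members 44.1, 19.7, 12.6 and 23.6. The lowest mean, in the deposited scaling, fell in the first stage for 69 members, in E16.5 for 18, in P0 for 49 and in the last stage for 14. In percent these were 46, 12, 32.7 and 9.33, near the 41.1, 13.7, 30.4 and 14.8 of all genes tested. The most frequent course, a fall, a fall and a rise, was that of 20 members (13.3%, and 14.6% of all genes), among them Cct6a, Oip5os1, Gm32885 and Gas5. A fall, no call and a rise was found with the deposited scaling in 16 members (10.7%, and 7.17% of all genes), Norad and Tug1 among them. A rise, a fall and a rise was found in 16 members (10.7%, and 5.03% of all genes).

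A rise in every step was found in 4 members (2.67%, and 1.02% of all genes), 4933427D06Rik, Kank4os, Gm2694 and AI662270. The first, a lincRNA gene at chr6:88950683-89110031 (GRCm38, plus strand), had 378, 353 and 298 normalized counts at E13.5, then 1270.1, 1216 and 1141 at E16.5, 1662, 1535 and 1526 in the P0 libraries and 2686, 2551 and 2528 in those of P3. Its rises were 1.82 (SE 0.09), 0.38 (SE 0.09) and 0.72 (SE 0.09) on the log2 scale, of which the last was -0.12 under equal library totals. Kank4os, antisense to Kank4, had 276, 263 and 287 normalized counts at E13.5, then 834, 873 and 837 at E16.5, 1058, 1079 and 987 in the P0 libraries and 2250.1, 1895 and 2014 in those of P3. Neighbouring stages did not overlap for either gene, though the rise of Kank4os at P3 was not called under equal totals (0.14, adjusted p = 0.163, limma). Kank4 itself went the other way at the ends of the series, with a mean of 71.0 at E13.5 and 10.8 at P3.

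**Figure D3:**
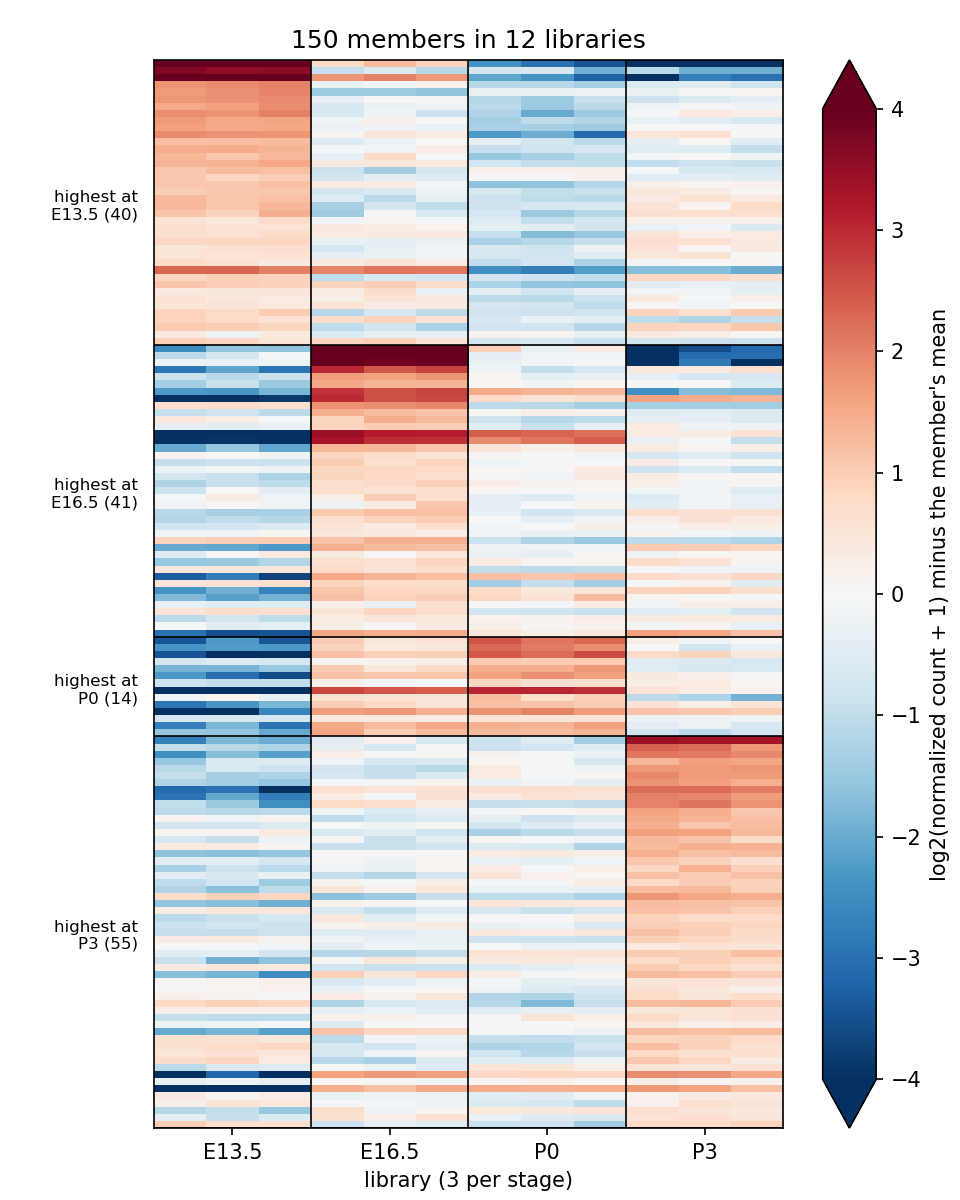
The 150 members (rows) in 12 libraries (columns, 3 per stage); colour is log2(normalized count + 1) minus the member's mean over libraries, limited to 4 in either direction. Rows are grouped by the stage of the highest mean (40, 41, 14 and 55 members) and ordered by the ratio of that mean to the next, so the rows at the top of each block are the most stage-restricted.

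Carriers of snoRNAs shared most of their course. In the GENCODE annotation 11 members hold at least 1 gene of type snoRNA inside their body on the same strand, with 10 gene entries in Gas5, 8 in Snhg1, 3 each in Snhg17 and Zfas1, and 2 each in Cct6a, Snhg5 and AC121821.1. Of these 11, 10 fell and 1 rose at E16.5 (median -1.84 on the log2 scale), 8 fell at P0 and 3 were not called (median -0.998), and 10 rose at P3 and 1 was not called (median 1.35). In the same steps 34.6% of all genes tested fell, 33.4% fell and 40.1% rose. Among the 11692 genes as abundant as the members, 6250 fell, 6251 fell and 7463 rose. Some entries of type snoRNA bear the symbol of a microRNA (Mir5117 in Gas5, Mir1949 in AC121821.1 and Mir3096 in AI506816), and Snord80 counts as 2 entries in Gas5. AI506816 has no other entry, and without it 9 of 10 fell at E16.5, 7 fell at P0 and 9 rose at P3. The gene that rose at E16.5 and was not called at P3 was 2010001K21Rik. The 135 members that hold neither a snoRNA nor a microRNA gene had 77 higher and 38 lower at E16.5, 20 and 68 at P0, and 71 and 30 at P3. They thus had mostly calls in the same direction as the carriers at P0 and P3, and the difference at E16.5 was not tested. The values are of reads in host exons, and snoRNAs themselves were not measured. Some exonic bases of these hosts lie inside exons of other genes: 35.6% in 2010001K21Rik, 20.9% in Snhg1, 18.5% in Zfas1, 17.8% in Gas5, 15.3% in Cct6a and 11.1% in Snhg6. Part of their reads could belong to those genes.

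Of 21 genes on a list of snoRNA hosts, 18 are in the table, 17 were tested and 8 are members (Gas5, Snhg1, Snhg5, Snhg6, Snhg15, Snhg17, Snhg20 and Zfas1). Gas5, a host whose spliced RNA is known to accumulate in growth-arrested cells, had 1543, 1620.3 and 1731 normalized counts at E13.5, then 363, 405 and 482 at E16.5, 201, 202 and 176 in the P0 libraries and 297, 313 and 253 in those of P3. All E13.5 libraries lay above all others, and P0 was the lowest stage. Snhg17 had 901, 852 and 1007 normalized counts at E13.5, then 158, 219 and 137 at E16.5, 107, 60.3 and 91.2 in the P0 libraries and 232, 325 and 293 in those of P3. Zfas1, which starts 81 bp from Znfx1 on the opposite strand, had 477, 516 and 606 normalized counts at E13.5, then 109, 138 and 147 at E16.5, 79.9, 58.1 and 78.2 in the P0 libraries and 142, 160.1 and 146 in those of P3. Snhg1, divergent from the amino acid transporter gene Slc3a2 at a start distance of 106 bp, had 606, 633 and 659 normalized counts at E13.5, then 145, 182 and 184 at E16.5, 80.9, 65.2 and 97.0 in the P0 libraries and 99.8, 123 and 138 in those of P3. The pattern of Snhg20 differed in its end point, with 219, 177 and 223 normalized counts at E13.5, then 98.3, 119.9 and 137 at E16.5, 154, 113 and 133 in the P0 libraries and 572, 519 and 452 in those of P3. Snhg20 was thus highest in the P3 libraries, and the other 7 had their highest mean at E13.5. In the GENCODE annotation Snhg20 holds a microRNA gene (Mir6516) and no snoRNA gene, so it is on the list but not among the 11 carriers.

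All 8 fell at E16.5 and rose at P3, by 0.80 (Snhg20) to 2.44 (Snhg17) and by 0.57 (Snhg1 and Gas5) to 1.94 (Snhg20) on the log2 scale, but under equal library totals Gas5 and Snhg1 were lower at P3 (-0.27 each, not called), Snhg15 and Zfas1 lost their call there, and so did Snhg20 at E16.5. With median-of-ratios factors Gas5 and Snhg1 were no longer called at P3 (0.13 each), and Snhg1 was not with TMM factors (0.40) or without library 3 of P0 (0.42). At P0, 5 of the 8 fell (Gas5, Snhg1, Snhg15, Snhg17 and Zfas1), and Snhg5, Snhg6 and Snhg20 were not called. Under equal totals the falls of Snhg1, Snhg17 and Zfas1 at P0 were not called (-0.42, -0.34 and -0.20), and Snhg20 was called higher there (0.83). Adjusted p at E16.5 ran from 3.69e-10 for Gas5 to 5.81e-04 for Snhg20 (limma). Over the 17 tested hosts, 3 rose and 11 fell at E16.5, 0 rose and 7 fell at P0, and 14 rose and 2 fell at P3. Of all genes tested 34.6% fell at E16.5, 33.4% fell at P0 and 40.1% rose at P3, and of the 11692 genes as abundant as the members 6250 fell, 6251 fell and 7463 rose in these steps. Those hosts that rose at E16.5 were Snhg11, Snhg18 and Epb41l4aos. Among the 8 core snoRNP protein genes, which package snoRNAs into enzymes, 8 fell at E16.5, 6 fell at P0 and 8 rose at P3. Dkc1, the pseudouridine synthase, had stage means of 17332, 1759.6, 1334 and 7205 normalized counts, and Fbl, the methyltransferase fibrillarin, 35516, 31221, 10447 and 23786.

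A different course was that of Mir9-3hg, whose intron holds the microRNA gene Mir9-3 (chr7:79505264-79505353, GRCm38, plus strand), one of the loci of the neural microRNA miR-9. The mature miR-9-5p sequence in the RefSeq table is shown with its seed in capitals.
mmu-miR-9-5p: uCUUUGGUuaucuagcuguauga
Mir9-3hg had 1162, 1284 and 1411 normalized counts at E13.5, then 129, 129 and 119 at E16.5, 293, 301 and 309.9 in the P0 libraries and 289.7, 348 and 386 in those of P3. The E13.5 libraries lay far above the rest and the E16.5 libraries below those of P0 and P3, so the gene fell by 3.34 (SE 0.13) and then rose by 1.26 (SE 0.13) on the log2 scale, with adjusted p = 4.81e-13 and 3.05e-07 (limma). It is the only member on a list of 13 microRNA host genes, of which 8 were tested, 2 rising and 2 falling at E16.5, 4 rising and 1 falling at P0, and 1 rising and 4 falling at P3. Among all genes tested 45.5% rose and 34.6% fell at E16.5, 27.6% rose and 33.4% fell at P0, and 40.1% rose and 36.4% fell at P3. The microRNA miR-9 itself was not measured.

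Of 26 pluripotency-associated transcripts on a list (mostly of the Platr series), 19 were tested and Platr14 and Lncenc1 are members. Platr14 had 246, 236 and 268 normalized counts at E13.5, then 596, 646 and 641 at E16.5, 228, 173 and 253 in the P0 libraries and 404, 285 and 276 in those of P3. It was highest in all E16.5 libraries. Lncenc1, a transcript named for its part in naive embryonic stem cells, had 259.7, 269 and 288 normalized counts at E13.5, then 337, 303 and 299 at E16.5, 67.9, 93.5 and 68.5 in the P0 libraries and 174, 201 and 129.6 in those of P3. Its P0 libraries lay below all others, with a fall of 2.03 (SE 0.19) on the log2 scale from E16.5 (adjusted p = 7.74e-08, limma). No long noncoding RNA of the X inactivation centre is a member: of 5 listed, 4 were tested, and their summed level per library was 155 to 356. On the whole X chromosome there were 5 members, and none lay on the Y chromosome.

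Some members were concentrated in a stage: for 48 of the 150, more than 50% of the sum of the 4 stage means lay in a single stage, and for 22 the highest stage mean exceeded the next more than 3-fold. The members named for each stage are the 6 with the highest such ratio, so the ratios describe them and test nothing. At E13.5 they were Gm11747, Gm39090, Gm42047, Gas5, Mir9-3hg and Snhg1. Gm11747, an antisense gene at chr11:118444200-118454995 (GRCm38, minus strand) that overlaps C1qtnf1, had 976, 1109 and 1086 normalized counts at E13.5, then 26.7, 38.1 and 29.3 at E16.5, 2.09, 1.09 and 0.483 in the P0 libraries and 0, 0 and 0 in those of P3, a 33.7-fold gap between its first and second stage means. With 39.0% of its exonic bases inside exons of other genes, part of its reads could belong to those. Gm39090, antisense to Bcl7c, had 1289, 1148 and 1190.4 normalized counts at E13.5, then 51.5, 65.1 and 45.1 at E16.5, 60.6, 63.0 and 25.1 in the P0 libraries and 45.5, 24.6 and 25.3 in those of P3. Gm42047, 3678 bp from the start of Klhdc4 in divergent orientation, had 1975, 1825 and 1828 normalized counts at E13.5, then 243, 284 and 242 at E16.5, 16.2, 13.0 and 6.76 in the P0 libraries and 0, 9.82 and 8.10 in those of P3. Each of the 3 had its E13.5 libraries far above all others. The fall of Gm42047 at E16.5 was not called with a pseudocount of 0.1 in place of 1 (-2.87, adjusted p = 0.0536, limma).

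At E16.5 the 6 were 2310043M15Rik, Gm15389, Gm12589, Gm4316, Gm5091 and 9430085M18Rik. 2310043M15Rik, at chr16:93792136-93794901 (GRCm38, minus strand) and antisense to Dop1b, had 5.28, 10.9 and 10.5 normalized counts at E13.5, then 1830.2, 1454 and 1409 at E16.5, 66.8, 27.2 and 43.0 in the P0 libraries and 0, 1.96 and 3.04 in those of P3. Dop1b peaked in the same stage, with means of 339, 1274, 629.5 and 511 normalized counts. Gm15389, at chr1:107687008-107693514 (plus strand), had 19, 25.0 and 38.9 normalized counts at E13.5, then 867, 702 and 867 at E16.5, 30.8, 35.9 and 36.7 in the P0 libraries and 0.969, 3.93 and 4.05 in those of P3. Gm12589, at chr11:121803107-121810319 (plus strand), had 41.2, 40.3 and 42.1 normalized counts at E13.5, then 838, 709 and 802 at E16.5, 39.7, 44.6 and 47.3 in the P0 libraries and 1.94, 5.89 and 2.02 in those of P3. Gm15389 and Gm12589 thus rose at E16.5 and fell by birth, with log2 differences of 4.88 and 4.21 at E16.5 and of -4.52 and -4.13 at P0 (SE 0.37 and 0.32 for each step, adjusted p between 2.42e-09 and 2.22e-08, limma). Neither overlaps a protein-coding gene, and neither shares an exonic base with another gene.

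Several members were near 0 at E13.5, high at E16.5 and still read at P3. AC140413.1, a lincRNA gene at chr19:57497390-57512784 (GRCm38, plus strand), had 2.11, 0 and 0 normalized counts at E13.5, then 1021, 835 and 822 at E16.5, 490.3, 464 and 428 in the P0 libraries and 115, 112 and 138 in those of P3. Gm13544, antisense to the receptor gene Acvr1c, had 2.11, 0 and 0 normalized counts at E13.5, then 563, 500.3 and 471 at E16.5, 728, 718 and 682 in the P0 libraries and 128, 107 and 98.2 in those of P3. 4932435O22Rik had 2.11, 3.26 and 0 normalized counts at E13.5, then 624, 497 and 489.9 at E16.5, 235, 280.4 and 341 in the P0 libraries and 51.4, 59.9 and 32.4 in those of P3. With at most 3 reads in any E13.5 library, the size of these rises depends on the 1 added before the logarithm, and adjusted p was 2.51e-13, 7.65e-13 and 2.56e-11 (limma). E330020D12Rik went the other way later: it had 748, 770.4 and 614 normalized counts at E13.5, then 585, 670.4 and 661 at E16.5, 27.2, 21.7 and 31.4 in the P0 libraries and 45.5, 46.2 and 37.5 in those of P3, a log2 difference of -4.54 (SE 0.18) at P0, the largest called fall there among members apart from 2310043M15Rik (-5.15).

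With the deposited scaling 14 members peaked at P0, none more than 3.08-fold above the next stage. With equal library totals 46 did (30.7%, and 51.8% of all genes), at most 4.89-fold above it. In the deposited scaling the 6 with the highest ratio to the next stage were Gm31518, Gm15441, Gm10655, Trerf1, Gm12279 and Neat1, with ratios of 3.08 to 1.49. Gm31518, a pseudogene in RefSeq, had 7.39, 17.4 and 7.36 normalized counts at E13.5, then 180.4, 126 and 134 at E16.5, 516, 394 and 445 in the P0 libraries and 105, 83.5 and 89.1 in those of P3. Gm15441, antisense to the thioredoxin inhibitor gene Txnip, had 23.2, 25.0 and 24.2 normalized counts at E13.5, then 230.0, 163 and 169 at E16.5, 587, 520.0 and 444 in the P0 libraries and 122, 71.7 and 101.2 in those of P3, whereas Txnip had its highest mean at E16.5 (9489 normalized counts, against 7769 at P0). Of the exonic bases of Gm15441, 36.2% lie inside exons of other genes, so part of its reads could belong to those. Trerf1 had 429, 477 and 432 normalized counts at E13.5, then 734, 759 and 813 at E16.5, 1416, 1381 and 1407 in the P0 libraries and 484, 463 and 425 in those of P3. All of these had P0 libraries above those of every other stage. The Sertoli, the mast cell, and the peritubular and stromal markers were also highest at P0 in the deposited scaling. Their part in the levels of these members was not tested.

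P3 held the peak of 55 members with the deposited scaling and of 44 with equal totals (36.7% and 29.3%). Of all genes tested, 20.2% and 16.2% peaked there. Smkr-ps, at chr6:29985329-29993776 (GRCm38, plus strand), had 10.6, 20.7 and 17.9 normalized counts at E13.5, then 54.4, 82.8 and 47.5 at E16.5, 40.2, 52.7 and 27.5 in the P0 libraries and 825, 758 and 760.2 in those of P3, 12.7 times its next stage mean. 1700018B24Rik, a transcribed pseudogene in RefSeq, had 198, 173 and 163 normalized counts at E13.5, then 302, 242 and 361 at E16.5, 209.9, 224 and 279 in the P0 libraries and 1936, 1773 and 1256 in those of P3. 1500015A07Rik, antisense to Afap1l1, had 90.8, 151.3 and 110.4 normalized counts at E13.5, then 595, 505 and 518 at E16.5, 553, 474 and 421 in the P0 libraries and 2168, 2094 and 1864 in those of P3. Zfp335os, which starts 403 bp from Zfp335 on the opposite strand, had 95.0, 135 and 116 normalized counts at E13.5, then 122, 106 and 98.1 at E16.5, 270.5, 202 and 179 in the P0 libraries and 687, 677 and 699 in those of P3. The rises from P0 to P3 were 4.29 (SE 0.30) for Smkr-ps, 2.78 (SE 0.18) for 1700018B24Rik and 2.08 (SE 0.16) for 1500015A07Rik on the log2 scale, with adjusted p = 1.40e-09, 4.16e-10 and 3.87e-09 (limma). The Rosa26 transcript, Gt(ROSA)26Sor, widely used as a site for transgenes because it is active in most tissues, had 420.1, 372 and 330.2 normalized counts at E13.5, then 923, 913 and 1052 at E16.5, 803, 878 and 756 in the P0 libraries and 3355, 3017 and 2590.2 in those of P3. Its P3 libraries were thus all above 2590 while no E13.5 library reached 421.

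**Figure D4:**
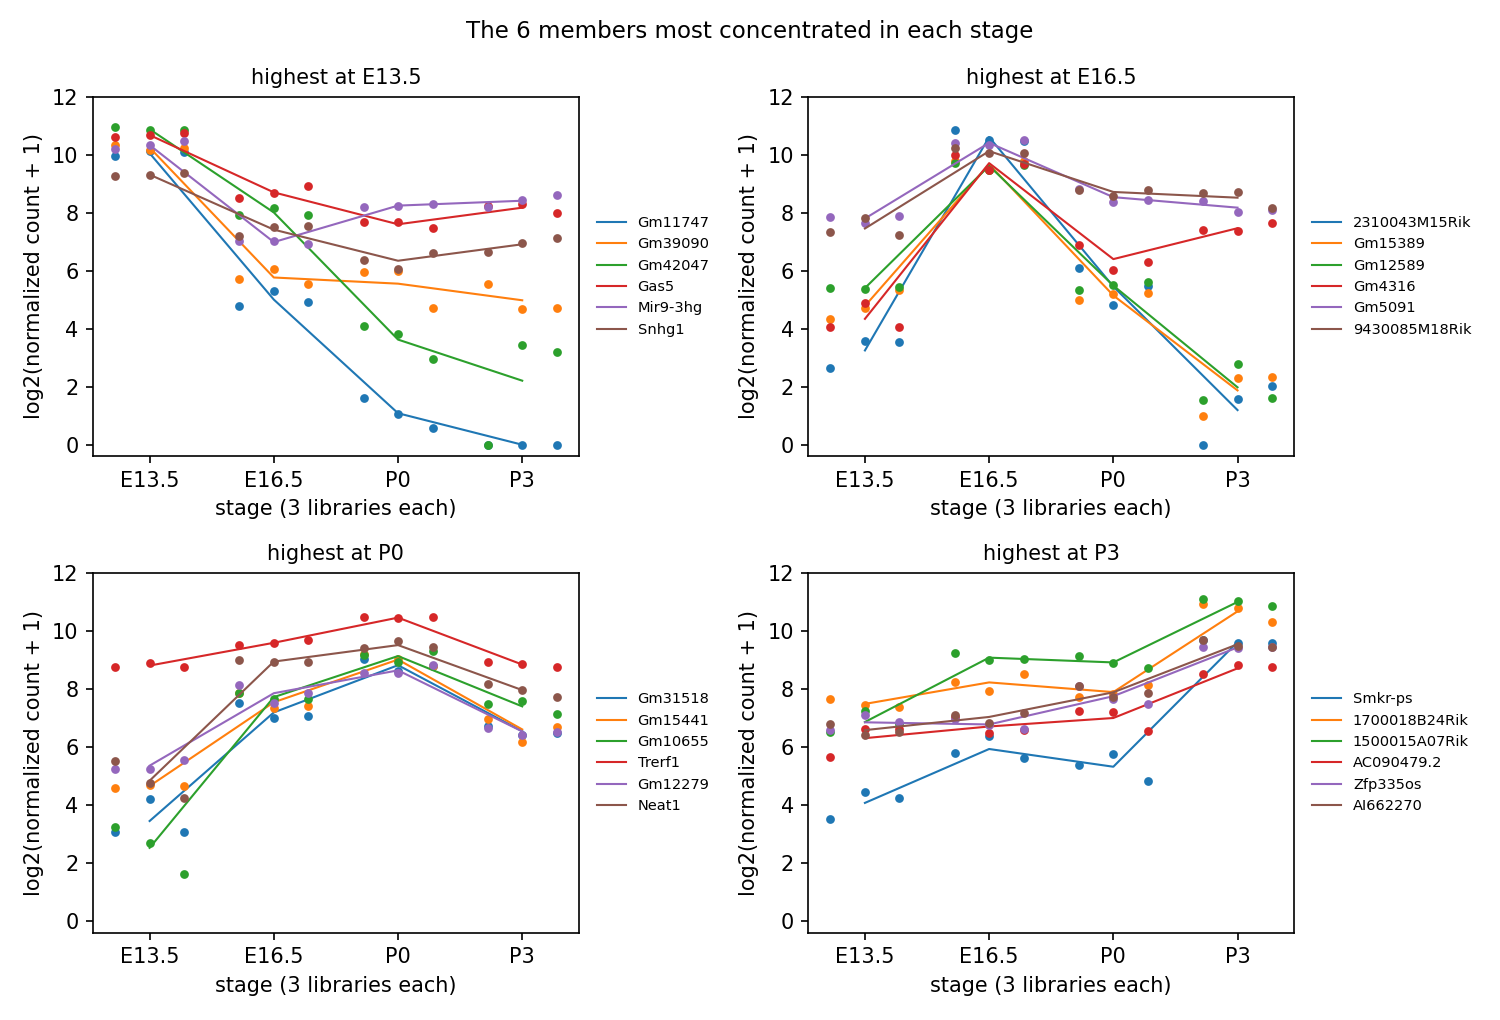
The 6 members with the highest ratio of their top stage mean to the next, for each stage, as log2(normalized count + 1) on the vertical axis by stage on the horizontal axis; points are libraries (3 per stage) and lines join the stage means of the log values. Members that peak at E13.5 and E16.5 reach ratios of 33.7 and 34.3, and those that peak at P0 at most 3.08, with the deposited scaling.

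Beside coding genes, 57 members overlap a protein-coding gene on the other strand, 21 start within 5 kb of a coding start in divergent orientation (median start distance 125 bp) and 72 do neither. At P3, 55 antisense pairs could be compared: where both genes were called, 25 moved in the same direction and 6 in opposite ones. Of 21 divergent pairs, 10 moved together and 3 oppositely. For the 67 other members and their nearest coding start, 20 moved together and 25 oppositely. The gap between these kinds was smaller in the other steps: same against opposite was 20 and 15, 10 and 6, and 26 and 24 at E16.5, and 10 and 9, 8 and 5, and 13 and 13 at P0. No test of these shares was made. At P3, 73.7% of called members were higher, as were 54.4% of called protein-coding genes and 73.1% of those as abundant as the members. Pairs of unlinked genes were not examined, and the directions at P3 depend on the scaling. 2010320M18Rik, 102 bp from the start of the signalling gene Pik3r2, is an example of a pair that moved together, with 447, 526 and 487 normalized counts at E13.5, then 85.9, 100.4 and 143 at E16.5, 133, 133 and 111 in the P0 libraries and 921, 783 and 743 in those of P3, while Pik3r2 had stage means of 5573, 2305, 1763 and 6627. Gm10655, 173 bp from the start of the corepressor gene Tle3, is an example of the opposite at P3, with 8.44, 5.44 and 2.10 normalized counts at E13.5, then 230.0, 198 and 200.2 at E16.5, 570.2, 489 and 626 in the P0 libraries and 176, 189 and 141 in those of P3, while Tle3 rose from 479 to 1370.1.

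Overlap limits what a value means, since the kits are not stated to keep strand. No exonic base lies in exons of another gene for 81 members, more than 10% do for 31, and more than 50% for 1 (Gm14549, 98.6%). Among the 119 members with at most 10% shared, 69 were higher and 34 lower at E16.5, 15 and 61 at P0, and 63 and 25 at P3. Of all genes tested, 45.5% were higher and 34.6% lower at E16.5, 27.6% and 33.4% at P0, and 40.1% and 36.4% at P3. These counts hold for the deposited scaling, on which the directions at P0 and P3 depend. Of all words of 50 bases in a member's transcripts, more than 10% also occur in transcripts of other genes for 12 members, so reads of these could be split between copies.

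RefSeq promoter windows, 250 bases before to 50 after a start, were found within 1000 bp of the annotated start for 66 members. They held a median of 22.5 CpG dinucleotides, and the 32851 windows of the whole table a median of 7. The median was 29 (range 3 to 47) for the 17 members highest at E13.5, 10 (4 to 39) for the 17 highest at E16.5, 9 (2 to 42) for the 3 highest at P0 and 25 (4 to 44) for the 29 highest at P3. The ranges overlapped almost fully and no test was made. The windows are shown for a pair of snoRNA hosts that fell at E16.5, for Smkr-ps, which peaked at P3, and for 4932435O22Rik and Tslrn1, which were highest at E16.5 and P3 and low at E13.5. They were picked after their CpG counts were seen, to show windows with many and with few, and Tslrn1 holds fewer than the median of the members highest at P3. Capitals mark CpG, and strand is that of the gene.
Snhg1 (chr19:8723237-8723536, plus): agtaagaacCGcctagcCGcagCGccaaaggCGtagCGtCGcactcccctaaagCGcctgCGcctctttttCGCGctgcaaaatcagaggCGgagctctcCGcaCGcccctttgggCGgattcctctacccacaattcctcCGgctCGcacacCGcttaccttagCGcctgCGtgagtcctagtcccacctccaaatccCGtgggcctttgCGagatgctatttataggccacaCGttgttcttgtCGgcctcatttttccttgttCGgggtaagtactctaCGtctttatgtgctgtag
Zfas1 (chr2:167062684-167062983, plus): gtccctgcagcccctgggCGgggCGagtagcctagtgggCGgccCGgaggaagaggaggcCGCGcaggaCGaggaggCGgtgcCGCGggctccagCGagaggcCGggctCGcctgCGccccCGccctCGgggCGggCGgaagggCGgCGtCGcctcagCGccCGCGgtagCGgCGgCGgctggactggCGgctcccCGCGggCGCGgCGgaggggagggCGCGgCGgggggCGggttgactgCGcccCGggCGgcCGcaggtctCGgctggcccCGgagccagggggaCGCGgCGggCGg
Smkr-ps (chr6:29985079-29985378, plus): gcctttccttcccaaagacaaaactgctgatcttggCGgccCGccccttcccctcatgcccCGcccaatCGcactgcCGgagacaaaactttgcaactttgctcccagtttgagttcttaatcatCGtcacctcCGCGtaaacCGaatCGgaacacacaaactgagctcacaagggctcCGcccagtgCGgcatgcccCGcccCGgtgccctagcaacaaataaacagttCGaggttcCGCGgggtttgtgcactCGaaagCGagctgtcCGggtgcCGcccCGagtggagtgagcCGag
4932435O22Rik (chr11:114448811-114449110, minus): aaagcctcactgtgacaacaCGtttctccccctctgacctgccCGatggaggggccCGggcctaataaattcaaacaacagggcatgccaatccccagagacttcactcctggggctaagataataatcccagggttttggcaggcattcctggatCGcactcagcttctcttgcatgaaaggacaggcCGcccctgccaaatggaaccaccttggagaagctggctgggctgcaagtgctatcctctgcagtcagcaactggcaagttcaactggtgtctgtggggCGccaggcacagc
Tslrn1 (chrX:62526962-62527261, minus): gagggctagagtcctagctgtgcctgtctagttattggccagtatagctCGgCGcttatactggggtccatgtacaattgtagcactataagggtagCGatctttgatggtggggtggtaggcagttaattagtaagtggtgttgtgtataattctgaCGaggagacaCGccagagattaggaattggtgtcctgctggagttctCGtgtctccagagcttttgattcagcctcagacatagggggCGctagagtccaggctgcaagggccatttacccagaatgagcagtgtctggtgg

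All coordinates are GRCm38. The windows hold 25, 47, 23, 6 and 7 CpG in that order. Tslrn1, whose window lies on the X chromosome, had 14.8, 13.1 and 9.46 normalized counts at E13.5, then 717, 614 and 759 at E16.5, 752, 711 and 735 in the P0 libraries and 889.6, 826 and 621 in those of P3. Motifs were searched on both strands in the 66 windows. The GC box GGGCGG occurred in 62.1% of them (35.7% of all windows), the CCAAT box CCAAT in 47.0% (37.4%), the ETS motif CCGGAAG in 19.7% (8.86%), the E-box CACGTG in 15.2% (7.15%) and the TATA box TATAAA in 10.6% (13.6%). These motifs do not contain one another. A match is a description of letters and not of binding.

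As a share of all normalized counts of a library, which does not depend on the size factor, the 150 members held 0.413% ± 0.00580 at E13.5, then 0.327% ± 0.0125 at E16.5, 0.318% ± 0.00796 in P0 libraries and 0.323% ± 0.00870 in P3 libraries (SD, n = 3). The E13.5 libraries held 0.409% to 0.420%, above all others. Without Cct6a the order changed: the share was 0.128% ± 0.00281 at E13.5, then 0.209% ± 0.0109 at E16.5, 0.233% ± 0.00883 in P0 libraries and 0.202% ± 0.00689 in P3 libraries (SD, n = 3). Without the 17 genes that RefSeq calls protein-coding it was 0.102% ± 0.00216, 0.169% ± 0.0103, 0.187% ± 0.00664 and 0.173% ± 0.00608 (SD, n = 3). The noncoding members thus held their lowest share at E13.5 in all 3 libraries of that stage, and these shares were not tested.

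**Figure D5:**
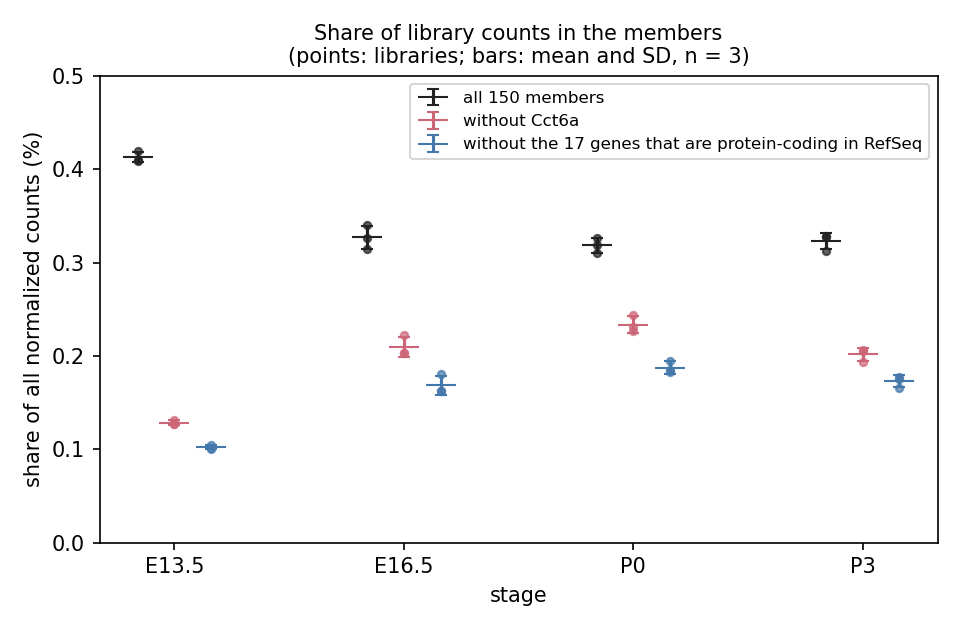
Share of all normalized counts of a library (percent, vertical axis from 0) in all 150 members, in the members without Cct6a, and in those without the 17 genes that are protein-coding in RefSeq, by stage; points are libraries and bars are the mean and SD of 3 libraries. With Cct6a, E13.5 is the highest stage (0.413%), and without it the lowest (0.128%).

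At the edge of the selection, the last 3 of the 150 were Snhg6, Gm49774 and 2900093K20Rik, with means over all libraries of 173, 171.1 and 171.1 normalized counts, and the next 3 below were C78283, Epb41l4aos and Gm10010, with 170.1, 169.8 and 169.2. Low-level genes of the same 3 types had another balance of calls: of the 2422 others that passed the filter, 1462 were called higher and 250 lower at E16.5, 750 and 282 at P0, and 318 and 1079 at P3. Many of these pass the filter only through the stage in which they are high.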

How the data were processed

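RNA was measured by sequencing in 12 libraries, 3 per stage. Per the submitters' processing notes, bcl2fastq 2.20, cutadapt 1.18, HISAT2 2.1.0, featureCounts 1.5.2 and DESeq2 1.26.0 were used, with the builds mm10 and GRCm38. The annotation release, strand setting and treatment of reads in several genes are not given in the sources used here. The authors deposited 1 table of 55487 genes whose values, a signal per gene, are read counts divided by a size factor per library. All values (100%) equalled a whole number of reads within 0.001, so reads could be recovered for count-based alternatives.

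Samples were grouped by stage from titles and column names, which carry the numbers 1, 3 and 4. Gene types and positions came from GENCODE M21 (GRCm38), and RefSeq types and promoter windows from GRCm38.p6 tables. The members and gene lists were chosen with earlier results of these data known. Log2(normalized count + 1) was fitted with limma 3.58.1 in R 4.3.3 (lmFit, eBayes with trend) over the 22384 genes that reached a normalized count of 10 in 3 or more libraries, with 8 residual degrees of freedom, and Benjamini-Hochberg adjusted p under 0.05 was called. A fold change on this scale understates the change of low genes. No set test was made.

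Named members are the 20 with the highest mean, the 6 highest and 6 lowest fold changes of each consecutive comparison among called members with no overlap between stages, the 6 most concentrated in each stage, members of the lists, the 3 ranks on either side of the cutoff, and partners. Alternatives were TMM, median-of-ratios and equal-total scaling, a pseudocount of 0.1 or 10, a test without the filter or with a mean of 100 or more as the filter, edgeR 4.0.16 on recovered reads, fits of 2 stages, leaving out each library, other rankings, and, chosen after seeing the data, leaving out members that are protein-coding in RefSeq or share over 10% of exonic bases. The comparison with genes as abundant as the members, the search for small RNA genes inside members and the sequence searches were also chosen after seeing the data. The fit was checked on simulated counts of 21024 genes, 200 of them raised 4-fold at P0: at P0 against E16.5 it called all 200 and 4 unchanged genes. The numbers in the column heads were also tried as a block, and the stage of the highest mean under each scaling, both added after seeing the data. Python 3.11.15, numpy 2.4.6, pandas 2.3.3 and matplotlib 3.10.9 were used for the rest.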

Additional observations from a re-analysis of the deposited data

How the results depend on the processing

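The counts of called members stayed within 1.5 times their main value under every alternative run. Leaving out each library in turn gave 124 to 131 called members for the step to E16.5, 86 to 98 for that to P0, 109 to 115 for that to P3, 131 to 137 between P0 and E13.5, 113 to 124 between P3 and E16.5, and 146 to 149 in the F-test. Other scalings, filters and pseudocounts, the fit of 2 stages and edgeR gave 127 to 132, 89 to 103, 104 to 116, 129 to 139, 117 to 125, and 146 to 149 in the same order. Ranking per kilobase kept 95 of the 150 members. The share of library counts without Cct6a was 0.128%, 0.209%, 0.233% and 0.202% at the 4 stages, and without the genes that RefSeq calls protein-coding 0.102%, 0.169%, 0.187% and 0.173%.

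Of the differences of named members, 2310 of the values under alternatives kept direction and side of the threshold, 35 lost the call, 14 gained it and 17 changed sign. Equal library totals turned Malat1 (0.19), Snhg5 (0.27), Snhg6 (0.35), Oip5os1 (1700020I14Rik, 0.0700) and Norad (2900097C17Rik, 0.62) to higher at P0 against E16.5, and Gas5 (-0.27), Snhg1 (-0.27), Platr14 (-0.28), Mir9-3hg (-0.67) and 4933427D06Rik (-0.12) to lower at P3 against P0. Norad at P0 was also turned by TMM factors (0.0702), median-of-ratios factors (0.21) and leaving out library 3 of E16.5 (0.00734, in a range of -0.0898 to 0.00734 over the libraries left out), Mir9-3hg at P3 by TMM (-0.0034) and median-of-ratios factors (-0.27), and Tug1 at P0 by leaving out library 1 (-0.0838) or 3 (-0.06) of P0, in a range of -0.0838 to 0.246. A change of scaling moves all genes of a comparison together. The cause of the others was not tested. The replicate numbers of the titles (1 to 3) could not be tied to columns, which are numbered 1, 3 and 4. Same-numbered columns of different stages did not deviate together (correlations across genes of -0.0356 to 0.0423 over 18 pairs, none over 0.1). Such correlations could miss a shared origin that affects few genes, so they do not settle whether these columns belong together. With the column number as a replicate block, added after seeing the data, 129, 95, 112, 136 and 121 members were called in the 5 comparisons in the same order, and among named differences only Malat1 at P0 changed its call (-0.47, adjusted p = 0.0311, limma).

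Members have at least 171 normalized counts on average, so depth limits them only in stages where they were near 0.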
